A study of Mus musculus with 4 samples.

Results

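The 9 genes described here are a set of transcripts by which mouse pluripotent cells are recognised: the transcription factor genes Pou5f1, Sox2 and Sall4, the chromatin genes Utf1, Dppa2 and Dppa4, the gene Dppa3, whose protein guards DNA from methylation, and the genes of the RNA-binding proteins Dppa5a and L1td1. They were taken by gene symbol from the 78028 rows of the deposited count tables, and all 9 were found. All 9 also passed the filter on low counts that was used for the spread between cultures. The study holds 1 group: 4 libraries of bulk polyadenylated RNA, each from a separately grown culture of E14TG2a mouse embryonic stem cells that had been differentiated in a cocktail meant to induce hepatic fate (A-HIC) and labelled hepatocyte-like. E14TG2a is 1 established line, and no undifferentiated, untreated or adult liver library is analysed here, so no value below is a change against a starting point. The libraries held 37797816, 40154964, 29518642 and 40124479 counts.

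In pluripotent cells, the Pou5f1 protein (Oct4) and the Sox2 protein bind DNA side by side and hold the network of self-renewal genes active, and Sall4, a zinc finger protein, acts with them. Utf1 and the pair Dppa2 and Dppa4 sit on the chromatin of developmental promoters, while Dppa3 (Stella) keeps the methylation factor Uhrf1 from its targets in the early embryo. Adult hepatocytes are not known for expressing these genes, most of which fall in most lineages as embryonic cells leave the pluripotent state.

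Promoter sequences from RefSeq (build GRCm38.p6, which is not the submitters' build) were found for 4 of the 9 genes, Pou5f1, Sox2, Utf1 and L1td1. The stretches of 250 bases before the annotated start of Sox2 and Pou5f1 are shown because these genes kept the steadiest ratio to each other, and that of L1td1 because it kept apart from them. Capitals mark the octamer core ATGCAAA, the sequence to which POU proteins bind, searched together with the Sox core CATTGT on both strands; the motifs do not overlap in these windows.
Sox2 (chr3:34649745-34649994, plus strand): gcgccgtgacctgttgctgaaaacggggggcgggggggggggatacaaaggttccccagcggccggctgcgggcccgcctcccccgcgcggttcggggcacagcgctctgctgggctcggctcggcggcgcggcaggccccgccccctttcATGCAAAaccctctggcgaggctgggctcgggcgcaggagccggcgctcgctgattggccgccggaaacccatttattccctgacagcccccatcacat
Pou5f1 (chr17:35505782-35506031, plus strand): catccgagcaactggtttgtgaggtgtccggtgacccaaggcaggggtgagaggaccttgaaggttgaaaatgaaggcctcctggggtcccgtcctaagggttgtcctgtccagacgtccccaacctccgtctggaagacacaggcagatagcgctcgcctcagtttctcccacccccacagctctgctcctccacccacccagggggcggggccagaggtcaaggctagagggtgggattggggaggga
L1td1 (chr4:98726504-98726753, plus strand): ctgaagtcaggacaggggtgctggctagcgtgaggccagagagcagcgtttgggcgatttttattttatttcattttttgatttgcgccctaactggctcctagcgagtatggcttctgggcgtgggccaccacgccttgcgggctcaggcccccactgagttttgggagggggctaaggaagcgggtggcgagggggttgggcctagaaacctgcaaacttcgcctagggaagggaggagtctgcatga
The octamer core lay 99 bases before the start in the Sox2 window, and 4.12% of all 32851 promoter windows of this length held it. The Pou5f1 and L1td1 windows held neither motif, nor did that of Utf1. A second annotated start of Pou5f1 had the Sox core 158 bases upstream, a motif held by 10.7% of all windows. The Sox2 window had 27 CpG sites, that of L1td1 11 and that of Pou5f1 8, against a median of 6 over all windows. These matches are letters in a window and say nothing of binding.

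The cultures carried all 9 transcripts, most of them at high levels and Dppa3 at a moderate one. In TPM, a level scaled for gene length and library size, each of the 9 reached 10 TPM in every library, as did 44.0% of 19942 protein-coding genes. Of the 9, 7 were at 100 TPM or more in all 4, a level reached by 8.88% of protein-coding genes. Of these, Sox2 in library 2 (104 TPM) and Dppa2 in library 4 (102 TPM) lay close to this limit. With the longest transcript as gene length, the means of Sox2 and Dppa2 were 99.6 and 97.6 TPM. Their own lengths, 2057 and 2447 bases, are the same either way, so this shift came from the lengths of other genes. The share of 8.88% was not recomputed on that scale. The median of the 9 mean levels was 198 TPM, against 7.57 TPM over all protein-coding genes. Together the 9 genes took 0.215%, 0.142%, 0.212% and 0.155% of the counts in libraries 1 to 4. Their summed level was highest in library 1 at 6121 TPM and lowest in library 2 at 3456 TPM. Dppa5a alone made up 55.3% ± 6.44 (SD, n = 4) of this sum. Of the counts of the 9 genes, not scaled for its short length of 619 bases, Dppa5a took 30.0%, 17.8%, 25.7% and 23.5% in libraries 1 to 4.

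**Figure D1:**
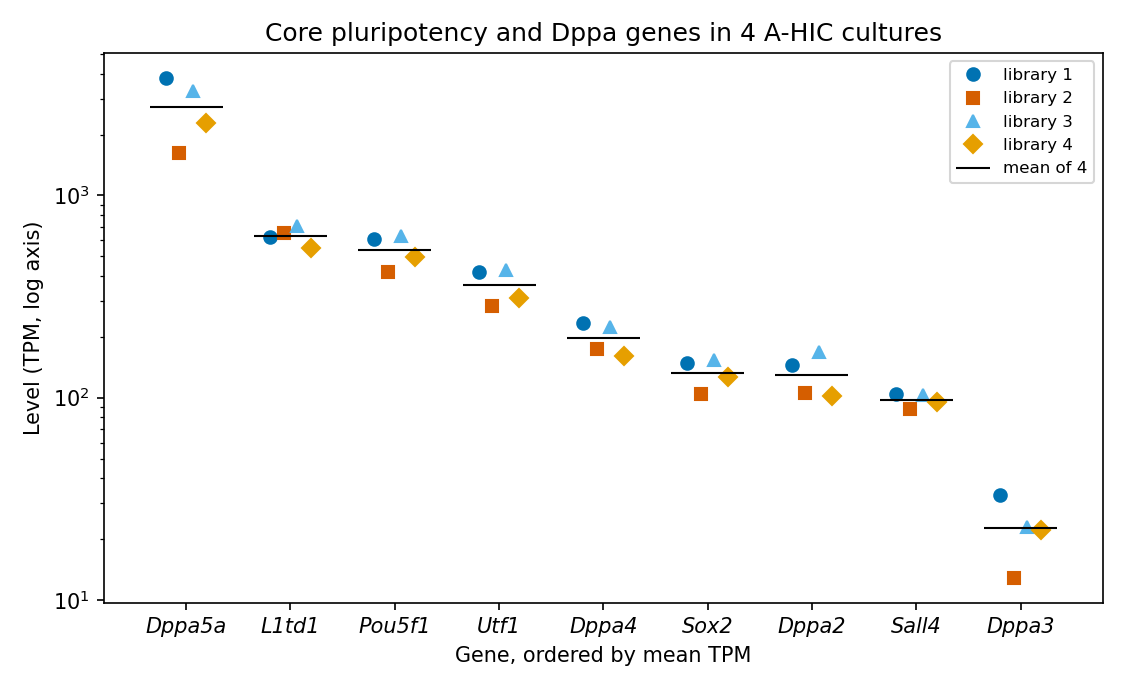
Level of each of the 9 genes in TPM on a log axis, 1 symbol for each of the 4 libraries and a bar at their mean. Dppa5a stands highest at 1618 to 3807 TPM and Dppa3 lowest at 12.9 to 32.9 TPM. Libraries 2 and 4 lie under libraries 1 and 3 for every gene except L1td1, with library 4 only just under library 3 for Dppa3.

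Among the transcription factors, Pou5f1 stood at 610, 419, 631 and 498 TPM in libraries 1 to 4, a mean of 539 ± 99.1 TPM (SD, n = 4) from 9588 to 14191 counts. Sox2 stood at 148, 104, 153 and 127 TPM, a mean of 133 ± 22.6 TPM. Both were lowest in library 2 and highest in library 3. Sall4 stood at 104, 88.1, 104 and 95.3 TPM, a mean of 97.8 ± 7.67 TPM, with the smallest relative spread of the 9 genes at 7.84% of its mean. Its highest library exceeded its lowest by 1.18 times, against 1.48 times for Sox2.

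Pou5f1 and Sox2 kept almost the same ratio in every culture. The Pou5f1 level was 4.13, 4.04, 4.11 and 3.93 times that of Sox2 in libraries 1 to 4, a mean ratio of 4.05 ± 0.0886 (SD, n = 4). On the log2 scale the SD of this ratio was 0.032, the lowest of the 36 pairs among the 9 genes, whose median was 0.26. Counting error alone gives an SD of 0.031, or 0.044 if both ends of a read pair were counted, so the spread of the ratio was close to that of counting alone. Of 9287 other protein-coding genes at a mean of 10 TPM or more, 8 had a ratio to Pou5f1 as steady as that of Sox2 (0.0861%), Sox2 included, and the median SD was 0.30. The size of the ratio depends on the gene length used. With the longest transcript in place of the union of exons, mean levels were 668 TPM for Pou5f1 and 99.6 TPM for Sox2. The pair was picked after its values were seen, so no test is given.

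**Figure D2:**
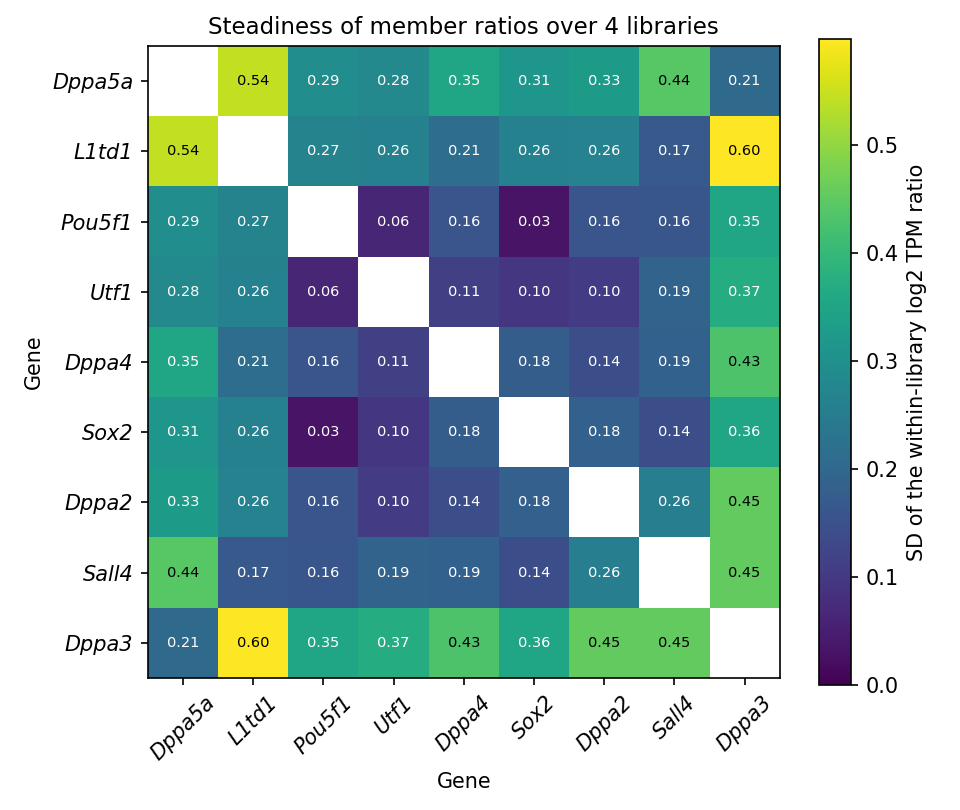
SD over the 4 libraries of the within-library log2 TPM ratio for each pair of the 9 genes, with the value in each cell. Pou5f1 with Sox2 (0.03) and Pou5f1 with Utf1 (0.06) are darkest, and L1td1 with Dppa3 (0.60) and L1td1 with Dppa5a (0.54) are brightest.

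The families of the 3 transcription factors differed in how far the pluripotency member stood above its relatives. Of the 14 other POU genes, 8 were at 1 TPM or more in all 4 libraries, against 63.4% of protein-coding genes. Their highest member was Pou2f1 (Oct1), a broadly expressed factor, at 16.3 ± 3.55 TPM, and Pou5f1 was 19.9 to 47.8 times higher in each library. Pou2f3 stood at 10.4 ± 4.78 TPM and Pou3f1 (Oct6), a factor of the primed epiblast, at 6.71 ± 1.09 TPM. Pou5f2, a relative known from the testis, had 0 counts in every library, and Pou1f1, a pituitary factor, had 2 counts in library 3 and 0 elsewhere.

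Sox2 was less set apart from the Sox family. Sox4, a factor of many embryonic tissues, stood at 58.9, 115, 80.3 and 111 TPM and was higher than Sox2 in library 2, so these neighbours overlapped. Sox12 stood at 41.0 ± 2.21 TPM and Sox15, which can pair with Oct4, at 32.6 ± 15.6 TPM. Sox1 and Sox3, the close relatives of Sox2, were picked after their values were seen and stood at 3.17 ± 0.782 and 1.20 ± 0.351 TPM. Of the 18 other Sox genes, 11 were at 1 TPM or more in all 4 libraries, a share near the 63.4% of all protein-coding genes. The lowest were Sox10, a neural crest factor, at 0.284 ± 0.131 TPM and Sox14 at 0 counts.

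Sall4 did not lead its family. Sall1, a related zinc finger gene, stood at 104, 122, 129 and 113 TPM, and Sall4 was 1.01, 0.724, 0.802 and 0.846 times as high in libraries 1 to 4. The mean log2 ratio of -0.25 was close to its SD of 0.20, and its sign differed in library 1. Sall2 and Sall3 stood at 9.23 ± 3.33 and 2.31 ± 0.833 TPM.

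**Figure D3:**
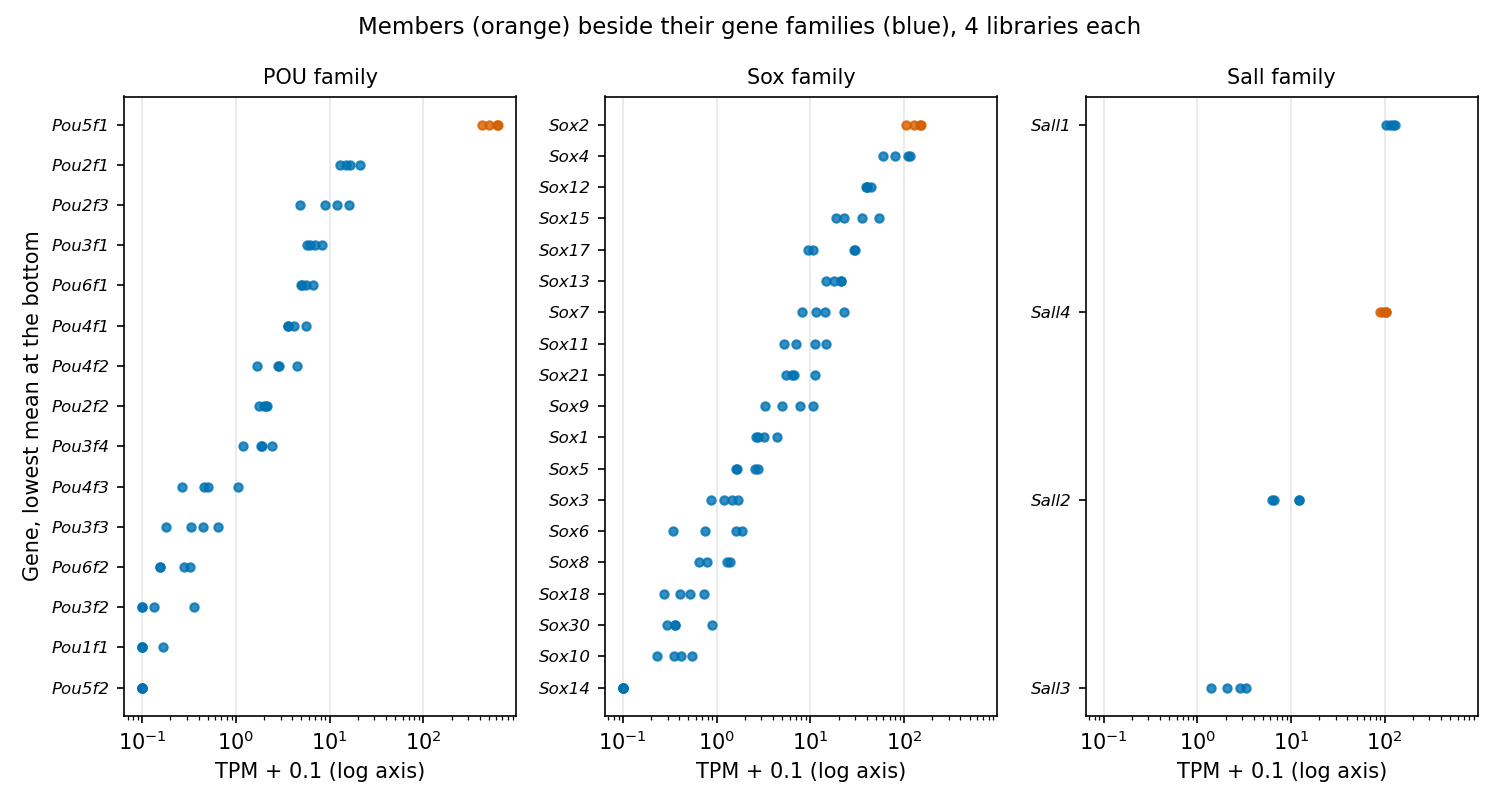
Level of every POU, Sox and Sall gene in each library as TPM + 0.1 on a log axis, with Pou5f1, Sox2 and Sall4 in orange and their relatives in blue. The Pou5f1 points (419 to 631 TPM) lie clear of all other POU genes, while Sox2 overlaps Sox4, and Sall4 lies beside Sall1.

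Of the chromatin genes, Utf1, which limits the repression of genes poised for differentiation, stood at 418, 285, 430 and 311 TPM, a mean of 361 ± 73.7 TPM (SD, n = 4). It followed Pou5f1 closely: the Pou5f1 level was 1.46, 1.47 and 1.47 times that of Utf1 in libraries 1 to 3 and 1.60 times in library 4. The SD of this log2 ratio, 0.065, exceeded the 0.026 from counting error, or 0.037 if both ends were counted. Its mean was 0.58, and 1.31 with the longest transcript as gene length.

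Dppa2 and Dppa4 encode SAP-domain proteins that work as a pair, and their genes are neighbours. Dppa4 stood at 235, 174, 222 and 160 TPM, a mean of 198 ± 36.5 TPM, and Dppa2 at 145, 105, 167 and 102 TPM, a mean of 130 ± 31.6 TPM. In all 4 libraries Dppa4 was the higher, by 1.62, 1.65, 1.33 and 1.56 times. Both were lowest in library 4, whereas Pou5f1, Sox2 and Utf1 were lowest in library 2. The gap between libraries 2 and 4 was small for Dppa2.

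Dppa3 was the least abundant of the 9 genes. It had 304, 117, 161 and 207 counts, or 32.9, 12.9, 22.9 and 22.3 TPM, a mean of 22.7 ± 8.19 TPM (SD, n = 4). Library 1 was high and library 2 low, with libraries 3 and 4 close together between them. The SD of its log2 level, 0.46 on CPM scaled by TMM (a scaling that balances libraries on most genes), exceeded counting error, which was 0.11, or 0.15 if both ends were counted.

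Dppa5a (Esg1), a KH-domain protein that binds RNA, was the most abundant, at 3807, 1618, 3290 and 2268 TPM, and ranked 12 among protein-coding genes by mean level. Its level in library 1 was 2.35 times that in library 2, a range exceeded only by that of Dppa3 (2.55 times). Although Dppa5a was 121.7 ± 17.6 times as abundant as Dppa3, the log2 ratio of these genes had an SD of 0.21, below the median of 0.26 over all pairs. L1td1, an RNA-binding protein derived from a LINE-1 element, stood at 621, 650, 708 and 550 TPM, a mean of 632 ± 65.7 TPM. It was highest in library 3 and lowest in library 4, and its lowest and highest levels differed by 1.29 times.

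The order of the 9 genes by mean level was Dppa5a, L1td1, Pou5f1, Utf1, Dppa4, Sox2, Dppa2, Sall4 and Dppa3. Of the 8 neighbouring pairs, 7 kept their order in all 4 libraries. The pairs were set by the mean levels in these same libraries, so their signs and p-values are descriptive and no independent test. Sox2 and Dppa2 did not differ beyond their spread, with a mean log2 ratio of 0.045 ± 0.18 (SD, n = 4) and 2 libraries in each direction (two-sided exact sign-flip permutation test, p = 0.75). L1td1 was above Pou5f1 by a mean log2 ratio of 0.24 ± 0.27, less than its SD, and the order turned round to -0.37 when the longest transcript was used in place of the union of exons as gene length. The union length of Pou5f1, 2248 bases, is well above its longest transcript of 1362 bases. With 4 libraries the exact test cannot go below p = 0.125, the exact value that each of the other 7 pairs gave, so none could pass 0.05.

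The 9 genes were then set beside each other across the cultures. In TPM, libraries 2 and 4 were both below libraries 1 and 3 for 8 of the 9 genes, the exception being L1td1, against 29.6% of 9288 protein-coding genes at a mean of 10 TPM or more. In CPM, without length or composition scaling, L1td1 showed this order too (9 of 9, against 39.8%), while with TMM factors or DESeq2 size factors it did not (8 of 9, against 29.5% and 26.7%). This arrangement of libraries was noticed in the values and is a description of ranks. For Dppa3 it rests on libraries 3 and 4 at 22.9 and 22.3 TPM, a gap smaller than its counting error (SD of 0.11 on the log2 scale). Library 2 was the lowest for 6 genes and library 4 for 3, while 30.4% and 17.1% of those 9288 genes were lowest there. The opposite order, with libraries 2 and 4 both above 1 and 3, was held by 0 of the 9 genes in TPM, CPM and TMM-scaled CPM, against 34.3%, 25.6% and 34.5% of genes, and by 0 of 9 with DESeq2 size factors, against 37.0%. None of the 9 was lowest in library 1, where 35.8% of genes were.

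**Figure D4:**
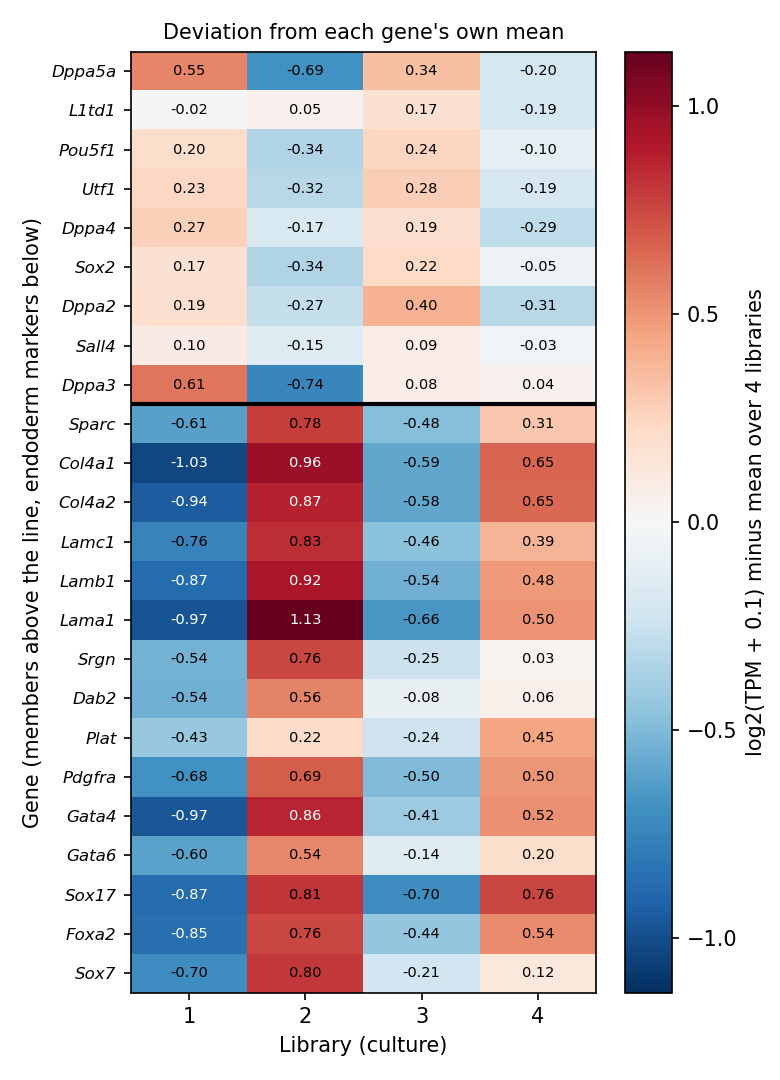
Deviation of log2(TPM + 0.1) from each gene's own mean over the 4 libraries, the 9 genes above the line and 15 parietal and primitive endoderm markers below it, with red above and blue below the mean. Dppa5a (0.55, -0.69, 0.34, -0.20) and most other members are red in libraries 1 and 3 and blue in 2 and 4, and all 15 endoderm markers show the opposite colours.

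Markers of parietal and primitive endoderm, an extraembryonic lineage, moved the other way. Each of the 15 listed markers passed 1 TPM in every library, against 63.4% of protein-coding genes. All 15 had libraries 2 and 4 above 1 and 3, against 34.3% of genes at a mean of 10 TPM or more. Their summed level was 3440, 10800.2, 4184 and 8228 TPM in libraries 1 to 4, beside 6121, 3456, 5729 and 4133 TPM for the 9 genes. Sparc, a matrix protein, led this list at 1229, 3231, 1344 and 2323 TPM, followed by the basement membrane collagens Col4a1 and Col4a2 at means of 1501 ± 905 and 985 ± 558 TPM. Sox7 and Foxa2, endoderm factors, were the lowest at 14.2 ± 6.42 and 14.3 ± 7.12 TPM. In bulk RNA, fewer cells of a type and less RNA per cell cannot be told apart, and the part of endoderm cells in the spread of the 9 genes was not tested.

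The label names hepatocyte-like cells, and hepatocyte markers were low beside the 9 genes. Of 14 such markers, 4 passed 1 TPM in every library, against 63.4% of protein-coding genes, and the summed level of the 14 was 24.1, 104, 28.9 and 47.0 TPM, beside 6121, 3456, 5729 and 4133 TPM for the 9 genes. Ttr, Afp and Trf, which encode plasma carriers, led at 14.3 ± 12.2, 11.5 ± 12.6 and 10.1 ± 1.84 TPM. Alb, albumin, had 11, 171, 0 and 12 counts, and Cyp7a1 and Fabp1 had 0 counts in every library. A count of 0 allows up to 3 counts, at most 0.102 CPM, or 0.203 CPM if both ends of a pair were counted, for counting error only. Of the 7 markers at a mean of 1 TPM or more, 6 had libraries 2 and 4 highest, against 32.7% of protein-coding genes at that level. Alb was among these with only 0.491 TPM in library 4 against 0.454 TPM in library 1, and its mean passed 1 TPM through library 2 alone. The list thus held markers at low but measurable levels beside others at 0, and its summed level was below that of the 9 genes in every library.

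**Figure D5:**
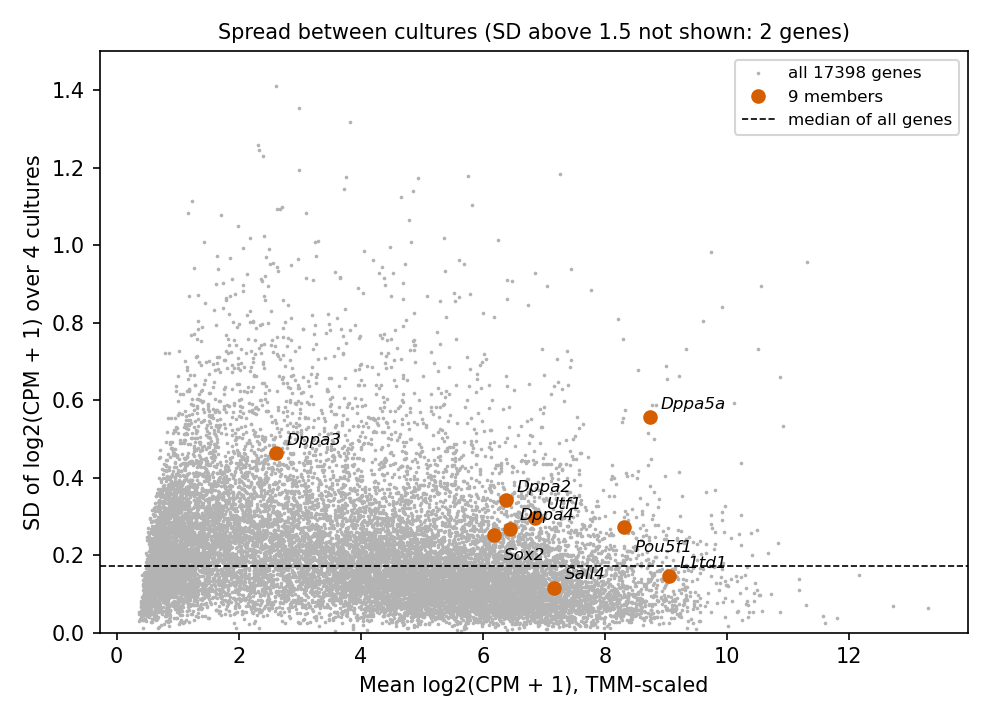
SD of TMM-scaled log2(CPM + 1) over the 4 cultures against mean level, for 17398 genes (grey) and the 9 members (orange), with the median of all genes dashed at 0.17. Of the 9 members, 7 lie above the dashed line, Dppa5a highest at 0.56, and L1td1 (0.15) and Sall4 (0.12) lie under it.

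Most of the 9 genes varied more between cultures than the typical gene. The median SD of their TMM-scaled log2(CPM + 1) was 0.27, against 0.17 over 17398 genes that passed the count filter, and 7 of the 9 were above that median of all genes. The median of all genes was 0.10 without the count filter and 0.21 with a pseudocount of 0.1 CPM, and the share of genes below the members' median, 76.4%, was then 88.0% and 62.2%. Dppa5a (0.56) and Dppa3 (0.46) varied more than 96.7% and 94.2% of genes. Dppa2 followed at 0.34 and Utf1 at 0.30. Sall4 (0.12) and L1td1 (0.15) varied less than the median gene. As a biological coefficient of variation without shrinkage (edgeR), Dppa5a stood at 0.373, Dppa3 at 0.369 and Sall4 at 0.0791, against a median of 0.129.

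Other genes of the pluripotency network were read from a list of 16 partners. All 16 were at 1 TPM or more in every library, against 63.4% of protein-coding genes, with a median of 182 TPM. Of the 16, 12 had libraries 2 and 4 lowest, against 29.6% of genes at a mean of 10 TPM or more. Zfp42 (Rex1), a marker of naive pluripotency, led at 924 ± 173 TPM, followed by the corepressor Trim28 at 923 ± 74.5 TPM and Cripto, a Nodal co-receptor, at 562 ± 133 TPM. Libraries 2 and 4 were highest for 2 of the 16, against 34.3% of genes. These were Stat3, which relays LIF signals, at 62.4, 84.7, 65.5 and 82.6 TPM, and Lin28a, an RNA-binding protein, at 87.7, 188, 141 and 145 TPM, a gene named because of these values. Prdm14 was the lowest at 18.6 ± 5.50 TPM.

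Of 12 formative and primed epiblast genes, 11 were at 1 TPM or more in every library, against 63.4% of protein-coding genes, with a median of 21.1 TPM. Dnmt3b, a methyltransferase, stood at 128 ± 9.61 TPM and Etv4 at 121 ± 27.4 TPM. Fgf5, the usual marker of the primed epiblast, was the lowest at 0.874 ± 0.401 TPM, and Lef1 stood at 2.97 ± 1.18 TPM. Of the 11 genes at a mean of 1 TPM or more, 3 had libraries 2 and 4 lowest and 3 had them highest, near the 29.2% and 32.7% of all protein-coding genes at that level.

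Genes of the two-cell-like state, a rare state of embryonic stem cell cultures in which Dppa2 and Dppa4 are known to be needed, were present at modest levels. Of 15 genes found, 12 were at 1 TPM or more in every library, against 63.4% of protein-coding genes. Of these 12, 11 had libraries 2 and 4 lowest, against 29.2% of protein-coding genes at a mean of 1 TPM or more. Zscan4e, Zscan4d and Zscan4c led at 28.6 ± 15.2, 27.3 ± 15.5 and 22.0 ± 12.6 TPM. Zscan4d stood at 48.0, 14.7, 30.5 and 16.2 TPM, a wider range than that of Dppa2 or Dppa4. The Zscan4 genes are near-identical copies, so their single levels are uncertain. Duxf3, the factor that drives this state, had 1, 2, 1 and 1 counts, and Sp110 stood at 0.299 ± 0.199 TPM.

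Relatives of Dppa5a differed widely in level, and genes of DNA methylation and its removal were read beside Dppa3. Ooep, a KH-domain gene of oocytes related to Dppa5a, stood at 64.0, 31.2, 51.3 and 37.6 TPM and Khdc3 at 7.69, 3.36, 7.92 and 4.72 TPM. Both had libraries 2 and 4 lowest, an order held by 29.2% of protein-coding genes at a mean of 1 TPM or more. Khdc1a and Khdc1c had 0 counts in every library, Khdc1b had 2 counts in library 4 alone, and Dppa1 had 4 counts or fewer. Uhrf1, the methylation factor that Dppa3 keeps from its targets, stood at 312 ± 21.7 TPM. The maintenance methyltransferase Dnmt1 stood at 185 ± 8.63 TPM and Dnmt3l at 171 ± 28.7 TPM. The demethylation enzymes Tet1, Tet2 and Tet3 stood at 140 ± 7.57, 27.3 ± 2.11 and 9.80 ± 3.21 TPM.

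Dppa3 also marks primordial germ cells. Of 11 germ cell genes, 10 were at 1 TPM or more in every library, against 63.4% of protein-coding genes, with a median of 16.3 TPM. Ifitm3 led at 532 ± 67.1 TPM, followed by Tfap2c at 61.9 ± 5.30 TPM and the receptor Kit at 57.4 ± 17.2 TPM. Nanos3, needed for germ cell survival, stood at 3.03 ± 1.17 TPM, and Nanos2 had 4 counts in library 1 and 0 elsewhere.

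The genes whose pattern over the 4 libraries was nearest to the mean of the 9 were Recql4, Psmc3ip, Rps12, Ccdc92 and Kank3, with root mean square differences of 0.012 to 0.018 on the log2 scale. Within 0.1, a wider limit than these differences, lay 422 of 9279 genes (4.55%), so the named genes are only the nearest of many. Dppa5a had the largest SD of log2 TPM among the members, 0.5553, hardly above the 0.5548 of Dppa3. The pattern of Dppa5a, which swung more widely than the mean of the 9, had 14 genes (0.151%) within 0.1. A fixed limit does not allow for the size of the swings, so these shares are not compared. The genes nearest to Dppa5a were Insl6, Cacng6, Calcoco2, Tdrp and Fam241b, at differences of 0.048 to 0.073.

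Several members have near-identical copies in the mouse genome, which bears on how reads were assigned. Dppa5a had 11 genes in the GENCODE M21 transcripts that matched at least 20% of its transcript at 85% identity or more. One of these, a transcript of Pigp, an enzyme of GPI anchor synthesis, matched 67.4% of Dppa5a at 95.9% identity and had 647, 567, 375 and 541 counts, beside 24378, 10184, 16060 and 14643 for Dppa5a. The other 10 copies had 5 counts or fewer in every library. Gm14058 matched 36.0% of Dppa4 at 99.4% identity and had 130, 98, 99 and 109 counts, beside 4044, 2936, 2914 and 2778 for Dppa4. Gm9788 matched 37.0% of Dppa2 at 99.3% identity and had 0 counts, and Pou5f1-rs4 matched 78.9% of Pou5f1 at 87.2% identity with 0 counts. No other copy of Dppa2, Dppa3, Dppa4 or L1td1 had more than 20 counts in a library. How reads that fit several places were treated is not stated in the labels, so the levels of genes with copies are uncertain to that extent. On the opposite strand, an antisense gene shared 14.1% of the Pou5f1 exon bases and had 1 count in all libraries together, and a gene opposite Sall4 shared 9.5% and had 17 to 32 counts. Without strand information, reads over the shared bases cannot be told apart by strand. How such reads were counted is not stated, so the counts of both genes in each overlap are uncertain to that extent. Sox2 lies inside the noncoding gene Sox2ot, with no shared exon bases.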

How the data were processed

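Bulk polyadenylated RNA from 4 A-HIC cultures was measured. The authors deposited whole-number read counts for each gene, unnormalized, made with STAR and featureCounts on GRCm39 (mm39), per the submitters' processing notes; their versions and settings are not stated there. Libraries hold no strand information, per the labels' protocols. Even numbers made up 60.0% to 62.6% of counts between 1 and 8, so both ends of a pair may have been counted, and counting errors are given for either case. Lengths (union of exons) came from GENCODE M21 on GRCm38, to which 48823 of 78028 rows were matched. CPM and TPM were computed from the deposited counts, ratios on log2(TPM + 0.1), and the spread on log2(CPM + 1) with TMM factors over genes passing filterByExpr. edgeR 4.0.16 (prior df of 0, tested on simulated data), DESeq2 1.42.0 (size factors only), R 4.3.3, BLAST+ 2.17.0, matplotlib 3.10.9, SciPy 1.17.1, pandas 2.3.3, numpy 2.4.6 and Python 3.11.15 were used. Protein sequences were not used here, so the planned comparison of proteins was left out.

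The members and lists were chosen with earlier results of these data known. Named were all members, every gene of lists with 6 or fewer, the 3 highest and 2 lowest of longer lists, and the 5 genes nearest to each of 2 patterns; Alb, Lin28a, Sox1 and Sox3 were added after their values were seen, and 1 gene that the rule names is not reported here. The rows of Cripto, listed under its older name, and 14 of 15 hepatocyte and 15 of 16 two-cell-like genes were found. Alternatives were other lengths, scalings, pseudocounts, thresholds and filters, and leaving out each library. The cultures are separate, per the labels, so SDs describe cultures of 1 line.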

Additional observations from a re-analysis of the deposited data

Results flagged for a closer look

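In groups of 4 libraries, a value was picked out when its gap to the next, divided by the whole range, passed Dixon's critical value, which chance gives for about 1 in 20 genes. Of 71 genes screened, 6 were picked out. None of the 9 members was picked out. Of the related genes named, Tfap2c was low in library 2 at 54.0 TPM and Ifitm3 high in library 4 at 632 TPM, Alb was high in library 2 at 7.18 TPM, and Nanos2 in library 1 (0.247 TPM), Pou1f1 in library 3 (0.065 TPM) and Khdc1b in library 4 (0.086 TPM) rest on 4 counts or fewer.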

How the results depend on the processing

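The median level of the 9 genes (198 TPM) was 167 TPM with the longest transcript as length and moved by less than its spread with other scalings; without single libraries it ranged from 185 to 210.4 TPM. With the longest transcript, the means of some members moved by more than their SD. These were L1td1 (511 TPM), Pou5f1 (668 TPM), Utf1 (271 TPM), Sox2 (99.6 TPM), Dppa2 (97.6 TPM) and Sall4 (80.0 TPM). Utf1, Sox2 and Dppa2 have the same length either way and moved with the lengths of other genes. The count of neighbouring pairs that kept their order in every library was 7, and 5 with the longest transcript or with CPM. The mean log2 ratio changed sign for L1td1 to Pou5f1 with the longest transcript (-0.37), for Sox2 to Dppa2 with CPM (-0.21) and without library 4 (-0.041, with 0.10 at most without another library), and, with CPM, for Dppa5a to L1td1 (-0.31) and Dppa2 to Sall4 (-0.79); CPM is not scaled for length. The median SD of the members was 0.27, 0.32 in CPM without TMM factors (an alternative chosen after seeing the data), and 0.26 to 0.33 without single libraries. Of 128 related genes, 96 were at 1 TPM or more in all libraries, 100 at 0.5 TPM and 70 at 5 TPM. No paired analysis was possible because the series holds 1 group. Depth limits Dppa3 most, whose counts reached 304 at most.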
